A study of Mus musculus with 4 samples.

Results

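The neuregulin and ErbB signalling genes were examined as 7 genes of the 32285 listed in the count tables. They were taken by symbol and are the ligands Nrg1, Nrg3 and Hbegf, and the receptors Erbb2, Erbb3, Erbb4 and Egfr. Each symbol named a single row of each table. In the mouse genome build GRCm38 (GENCODE M21 annotation) Nrg1 lies at chr8:31814551-32884029 and Nrg3 at chr14:38368952-39473088, both on the minus strand. Erbb2 (chr11:98412470-98437716) and Egfr (chr11:16752203-16918158) are on the plus strand, and Erbb3 (chr10:128567523-128589652) and Erbb4 (chr1:68032186-69108059) on the minus strand. Nrg1, Nrg3 and Erbb4 span 1069479, 1104137 and 1075874 bases, nearly all of it intron, and whether reads from introns were counted is not given in the sources used here.

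RNA was counted in single EGFP-positive cells sorted from the pharyngeal region and heart of mouse embryos at embryonic day 9.5. The embryos are labelled outbred SwissWebster, and the study's methods give a mixed background of C57BL/6 and Swiss Webster. The cells belonged to the Tbx1 lineage, that is, cells in which a Cre gene knocked into Tbx1 had switched on a floxed GFP reporter, and their descendants. The comparison asks what loss of both copies of Kmt2d, a histone H3K4 methyltransferase, does in this lineage when Tbx1 is already reduced. The sort was made to leave out cells outside the lineage.

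The control was the conditional heterozygote (cHet), with Tbx1Cre/+ and with 1 of its Kmt2d alleles floxed (Kmt2d F/+). The conditional knockout (cKO) carried Tbx1Cre/+ with both Kmt2d alleles floxed (Kmt2d F/F). Embryos of both groups were GFP F/+ and, through the Cre allele, heterozygous for Tbx1, so no library had normal Tbx1 dosage or 2 unfloxed Kmt2d alleles. There were 2 libraries per genotype. Those of Rep1 pooled 4 embryos each and used the Next GEM 3′ kit v3.1, and those of Rep2 pooled 3 embryos each and used the GEM-X 3′ kit v4.1. Embryos within a pool cannot be told apart, so n = 2 per genotype and the kit cannot be told apart from the replicate. The study also gives somite counts, which it used for staging. In Rep1 the range of the cHet pool enclosed that of the cKO pool. In Rep2 the cKO embryos were at least as advanced as the most advanced cHet embryos. Stage and genotype are thus partly mixed in Rep2, and the part of stage in the results was not tested.

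Neuregulins are ligands of the epidermal growth factor (EGF) family, most of which are made as membrane proteins and released by proteases. They bind ErbB3 or ErbB4, which then pair with each other or with ErbB2. ErbB2 has no known ligand of its own, and ErbB3 has little kinase activity, so these depend on a partner. Heparin-binding EGF-like growth factor, the product of Hbegf, binds EGFR and ErbB4. In the embryonic heart, neuregulin-1 from the endocardium acts on ErbB2 and ErbB4 of the myocardium and is needed for the muscle ridges called trabeculae. In developing nerves, neuregulin-1 on axons acts on ErbB3 of the glia beside them.

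The libraries held 179454146 to 234726019 UMIs, which are counted molecules. Those totals cover every barcode listed. The count table of cHet Rep1 listed 37093 barcodes, of which 6242 had at least 3000 genes. Those of cKO Rep1, cHet Rep2 and cKO Rep2 listed 9307, 13192 and 16775, of which 6668, 9743 and 12587 did. The part of the many low barcodes of cHet Rep1 in the results was not tested. After filters, 5869 to 11938 cells were kept per library, with medians of 17240.5 to 22972 UMIs per cell. Barcodes of kept cells were shared by 12 cells between the Rep1 libraries and by 41 between the Rep2 libraries, and by none between replicates. Kmt2d itself was at 17.4 and 15.2 CPM (UMIs of the gene per 1000000 UMIs) in cHet and cKO of Rep1, and at 23.9 and 21.0 CPM in Rep2. These are counts from the 3′ end, and the deleted part may lie elsewhere in the gene, so they do not check the deletion. The cells fell into 22 clusters, of which 14 were called after a cell type ("-like") by marker genes, and 8 are known here by their number and leading genes. Cardiac muscle-like cells (cluster 17) had 8 of 8 cardiac muscle markers but numbered only 42 in cKO Rep1, against 154, 216 and 240 in cHet Rep1, cHet Rep2 and cKO Rep2. The neural tube-like cluster 18 was uneven as well, with 236 and 228 cells in cHet and cKO of Rep1 and 78 and 61 in Rep2. In the same order its neural tube markers summed to 114, 164, 31.8 and 2.83 CPM. Its cranial mesenchyme markers summed to 375, 323, 879 and 1307 CPM. The name thus holds less well for Rep2, and least for cKO Rep2. Clusters 17 and 16 also passed the rule for a second type, with 7 of 8 markers of the anterior second heart field in cluster 17 and 5 of 9 of surface ectoderm in cluster 16, and each was called after the type with more markers. No cluster met the marker rule for multilineage progenitors, neural crest or glia, or epicardium.

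Levels are given below as CPM of the UMIs summed over a cluster's cells in 1 library. Unless libraries are named, 4 values stand in the order cHet Rep1, cKO Rep1, cHet Rep2, cKO Rep2. The 7 genes were left out of the genes used for clustering. The clusters were still made from the same cells, so differences between clusters are described and not tested. Shares of cells with a UMI are given after every cell was thinned to 5000 UMIs, since detection follows depth. A level is set beside other levels of the same gene only, since counts from the 3′ end do not rank genes.

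**Figure D1:**
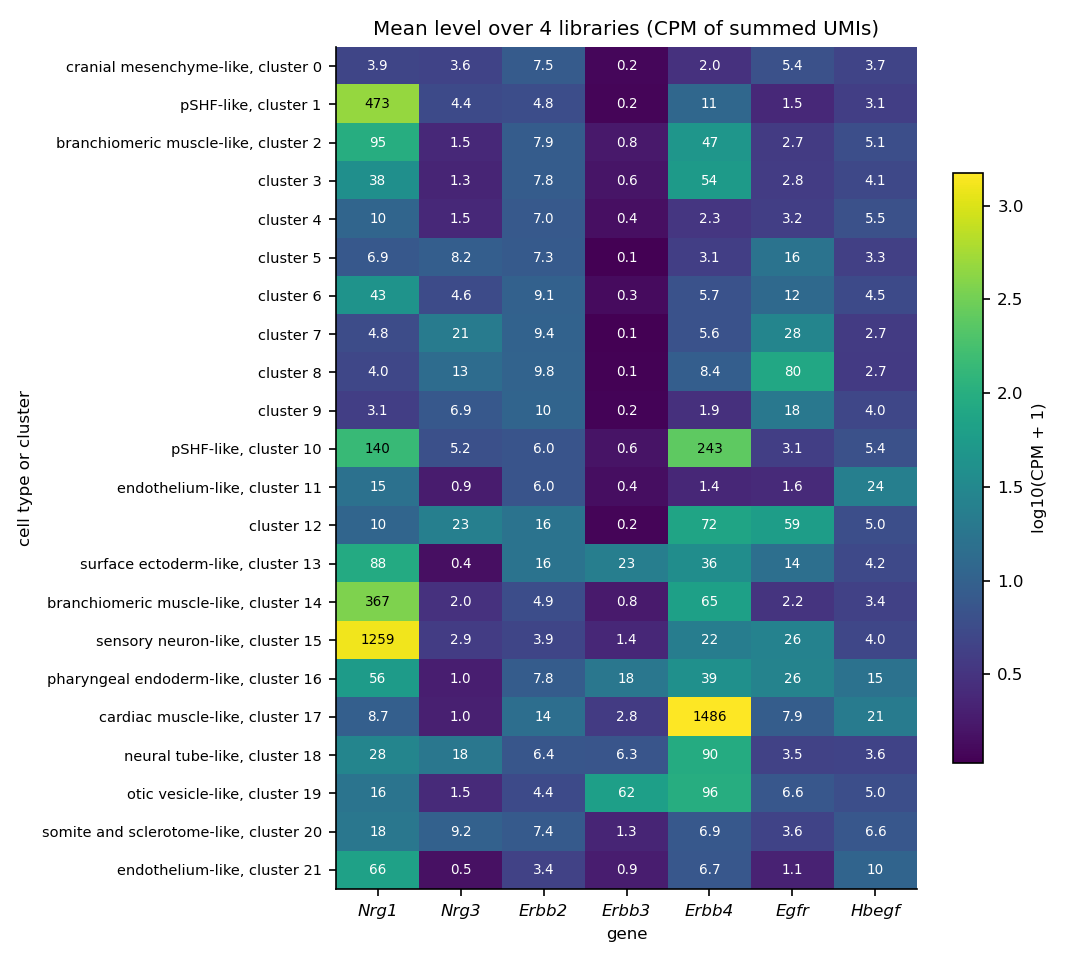
Heat map of the mean level of the 7 genes (columns) in the 22 clusters (rows), as log10(CPM + 1) of summed UMIs, mean of the 4 libraries. Nrg1 was highest in the sensory neuron-like cluster 15 (mean 1259 CPM), Erbb4 in the cardiac muscle-like cluster 17 (mean 1486 CPM) and Erbb3 in the otic vesicle-like cluster 19 (mean 62.0 CPM), while Erbb2 stayed within 3.43 to 15.7 CPM in all 22 clusters.

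Among the ligands, Nrg1, which encodes neuregulin-1, had its highest levels in neurons, in one part of the posterior second heart field (pSHF) and in one part of the branchiomeric muscle. In the sensory neuron-like cluster 15 the levels were 539, 960, 1379 and 2157 CPM. In the pSHF-like cluster 1 (leading gene Hoxd3) they were 403, 350, 585 and 552 CPM. In the branchiomeric muscle-like cluster 14 (leading gene Emx2), progenitors of the jaw and face muscles, they were 381, 361, 369 and 356 CPM. Cluster 15 was above cluster 1 in each library, although their ranges over libraries overlapped, and clusters 1 and 14 did not differ beyond their spread. All 4 libraries of cluster 14 lay above all 4 of the next cluster, the pSHF-like cluster 10, which had 119, 149, 139 and 153 CPM. Cluster 15 held 1.67% to 3.20% of the cells of a library and 22.3% to 33.6% of its Nrg1 UMIs. Cluster 1 held 28.1% to 38.6% of the Nrg1 UMIs from 6.84% to 8.96% of the cells.

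The share of cells with a Nrg1 UMI was 60.1%, 56.5%, 74.7% and 71.9% in cluster 15 and 1.22%, 1.86%, 2.46% and 1.12% in cluster 9 (Foxd2os, 9130410C08Rik, Lum), the cluster with the lowest level. Before thinning, the median depths of these clusters were 21236 and 15642 UMIs per cell. The share in cluster 15 was thus far above that in cluster 9 in every library, and 10 of the 22 clusters were above 20 CPM in all 4 libraries. Surface ectoderm-like cells (cluster 13) had 86.8, 65.1, 89.8 and 111 CPM, and pharyngeal endoderm-like cells (cluster 16) had 40.3, 64.0, 39.5 and 81.8 CPM.

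The endothelium, from which neuregulin-1 reaches the heart muscle, was clustered again within itself. Nrg1 was not spread evenly over the 4 endothelial groups. A group of 192 cells that carried 6 of 7 arterial and 6 of 6 endocardial markers had 118, 0, 159 and 136 CPM, the 0 coming from only 5 cells in cKO Rep1. Without thinning, 29.0%, 47.6% and 32.3% of its cells in the other 3 libraries had a Nrg1 UMI. The progenitor group, which had 3 of 6 progenitor markers (Etv2, Tal1 and Lmo2), had 109, 52.4, 48.1 and 46.1 CPM. The remaining groups, led by Lhx6 and by Col15a1, had 0.953 to 7.01 CPM over their libraries and a Nrg1 UMI in 2.34% to 4.90% of cells, again without thinning.

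Nrg3, which encodes neuregulin-3, a ligand of ErbB4 known mostly from the nervous system, was low and had its highest levels in unnamed clusters and in the neural tube-like cluster 18. It was highest in cluster 12 (Adamtsl1, Tagln, 1700018A04Rik), at 30.2, 19.0, 10.9 and 32.4 CPM, and in cluster 7 (Pcdh9, Dach2, Lingo2), at 17.1, 21.2, 18.2 and 26.7 CPM. Cluster 8 (Vtn, Cthrc1, Gm30624) had 9.84 to 15.9 CPM. The neural tube-like cluster 18 had 16.8, 25.5 and 29.1 CPM in 3 libraries and no UMI in cKO Rep2, where 3 UMIs would be 2.83 CPM. Its neural tube markers were lowest in cKO Rep2 as well, at a sum of 2.83 CPM against 31.8 to 164 CPM in the other libraries. No pair of neighbours in the order of Nrg3 levels was separate over the 4 libraries. No cluster passed 20 CPM in every library, and in 14 clusters every library passed 3 UMIs.

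Hbegf was highest in vessels and heart muscle. Its level was 16.7, 20.4, 29.4 and 27.5 CPM in the endothelium-like cluster 11 and 15.7, 17.9, 23.8 and 25.01 CPM in the cardiac muscle-like cluster 17. Pharyngeal endoderm-like cells had 10.5, 7.46, 21.5 and 21.6 CPM, and the endothelium-like cluster 21 had 8.53, 6.92, 13.2 and 11.97 CPM. The ranges of neighbours among these 4 clusters overlapped, but their order was the same in each of the 4 libraries. All libraries of cluster 21 lay below all of clusters 11 and 17. The other 18 clusters had mean levels of 2.70 to 6.65 CPM.

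**Figure D2:**
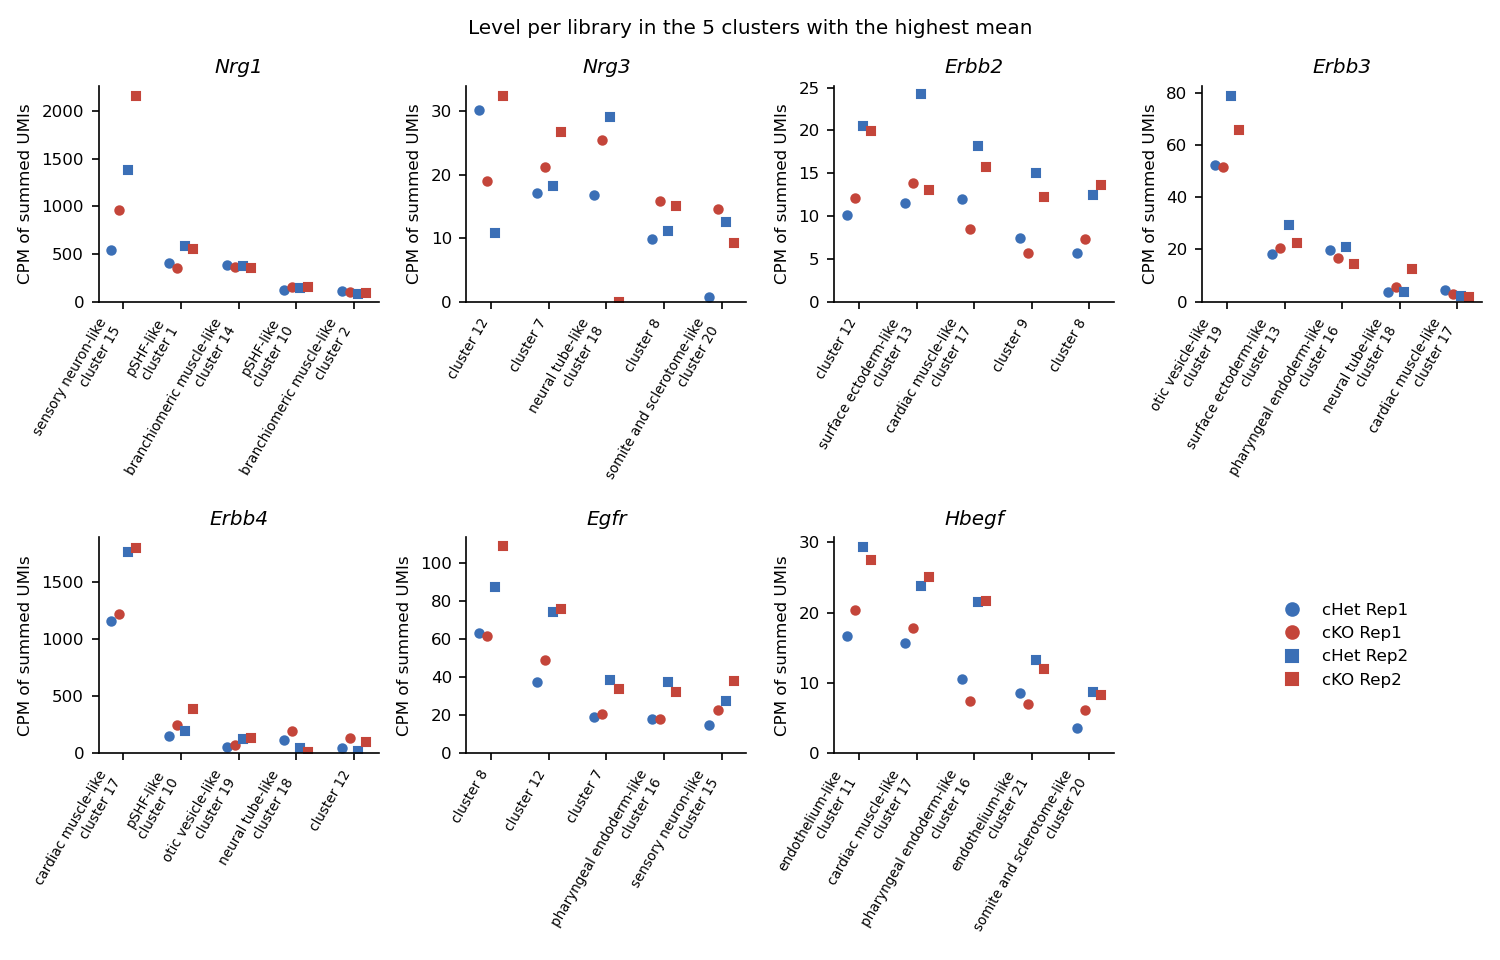
Level of each gene per library (y axis, CPM of summed UMIs, starting at 0) in the 5 clusters with its highest means (x axis), with colour for genotype and marker shape for replicate. Libraries of 1 cluster scatter widely for Nrg1 in cluster 15 (539 to 2157 CPM), while Erbb4 in cluster 17 (1159 to 1803 CPM) and Erbb3 in cluster 19 (51.6 to 78.7 CPM) lie apart from all other clusters in every library.

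Among the receptors, Erbb4, which binds neuregulins and is a receptor of embryonic heart muscle, was at 1159, 1219, 1763 and 1803 CPM in the cardiac muscle-like cluster 17. Thinned, 65.6%, 73.8%, 80.1% and 82.5% of these cells had an Erbb4 UMI. The endothelium-like cluster 11, which had the lowest level (0.522, 0.301, 1.11 and 3.56 CPM), had a UMI in 0.299%, 0%, 0.905% and 1.23% of cells. Median depths were 20524 and 19250 UMIs per cell in clusters 17 and 11. The second level was that of the pSHF-like cluster 10, with 152, 247, 190 and 384 CPM and a UMI in 20.3% to 30.1% of cells. Every library of cluster 17 was at least 4.69-fold above cluster 10 of the same library, and clusters 17, 10 and 19 were separated from each other in all libraries. Of the neighbours below them in the order, only the sensory neuron-like cluster 15 and the pSHF-like cluster 1 did not overlap. Otic vesicle-like cells (cluster 19) had 56.5, 69.7, 124 and 133 CPM, and pharyngeal endoderm-like cells had 22.6, 21.1, 63.6 and 50.4 CPM. The neural tube-like cluster 18 had 445, 1024, 50 and 12 Erbb4 UMIs, or 122, 209, 41.2 and 10.6 CPM after TMM scaling. It held 17.5% of the Erbb4 UMIs of cKO Rep1 and 0.0607% of those of cKO Rep2.

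Erbb4 was also found in unnamed clusters and in branchiomeric muscle, at lower shares of cells. Cluster 12 had 41.8, 130, 22.5 and 93.4 CPM, the branchiomeric muscle-like cluster 14 had 30.8, 51.9, 71.9 and 104 CPM, and cluster 3 (Ppp2r2b, Tnc, Epha3) had 24.9, 44.9, 48.8 and 95.9 CPM. The share of cells with a UMI was 5.24% to 17.7% in cluster 12, 10.2% to 25.4% in cluster 14 and 2.97% to 7.99% in cluster 3, each above that of cluster 11 in the same library. In cluster 3, 92.7% to 100% of the thinned Erbb4 UMIs were in the 5% of cells with the most, which mainly restates how few cells had a UMI.

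Erbb3, a neuregulin receptor of glia and epithelia, had its 3 highest levels in epithelial clusters. The otic vesicle-like cluster 19 had 52.3, 51.6, 78.7 and 65.5 CPM, with a UMI in 24.5%, 21.1%, 29.5% and 25.9% of cells, and lay above all other clusters in every library. Surface ectoderm-like cells had 18.2, 20.5, 29.3 and 22.6 CPM and pharyngeal endoderm-like cells 19.9, 16.8, 20.8 and 14.4 CPM, and these did not differ beyond their spread. In 15 of the 22 clusters fewer than 1% of the thinned cells of any library had an Erbb3 UMI. Cardiac muscle-like cells had 4.43, 2.82, 2.06 and 1.91 CPM.

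Erbb2, the partner receptor without a ligand of its own, was found in every cluster at low level. Its mean level ran from 3.43 CPM in the endothelium-like cluster 21 to 15.7 CPM in cluster 12 and in surface ectoderm-like cells, and no pair of neighbours in the order was separate over the 4 libraries. Cardiac muscle-like cells had 11.9, 8.46, 18.2 and 15.7 CPM and otic vesicle-like cells 4.95, 0.839, 5.01 and 7.00 CPM. Over all cells Erbb2 was at 5.39 and 5.66 CPM in the Rep1 libraries and at 11.1 and 9.93 CPM in the Rep2 libraries, so the replicates lay further apart than the genotypes.

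Egfr, the receptor for EGF, TGF-alpha and HB-EGF, was highest in unnamed clusters. Cluster 8, for which Egfr was also among the 10 leading genes, had 63.4, 61.9, 87.7 and 109 CPM, and cluster 12 had 37.5, 49.0, 74.2 and 76.1 CPM. In each library cluster 8 was above cluster 12 and cluster 12 at least 1.93-fold above cluster 7, although the ranges over libraries overlapped. Thinned, 22.0% to 31.3% of the cells of cluster 8 had an Egfr UMI, against 0% to 2.63% in the endothelium-like cluster 21, where the level was lowest. Pharyngeal endoderm-like cells had 18.2, 18.0, 37.2 and 32.1 CPM and sensory neuron-like cells 14.8, 22.9, 27.5 and 38.1 CPM.

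The clusters highest for Nrg1 and for Erbb4 were different ones. Nrg3 had its highest mean in cluster 12, and Erbb2 had nearly equal highest means in cluster 12 and in surface ectoderm-like cells. Sensory neuron-like cells, first for Nrg1, had 0.952 to 1.93 CPM of Erbb3 and 18.3 to 30.6 CPM of Erbb4. Cardiac muscle-like cells, first for Erbb4, had 4.24 to 11.3 CPM of Nrg1. The pSHF-like cluster 10 and the branchiomeric muscle-like cluster 14 had both Nrg1 and Erbb4. In cluster 10, thinned cells with UMIs of both genes made up 5.33%, 5.98%, 6.16% and 6.81% of cells. The share with Erbb4 was 20.5%, 25.6%, 25.8% and 27.4% among cells with Nrg1, and 20.3%, 23.4%, 22.8% and 31.0% among cells without it. In cardiac muscle-like cells, Erbb2 and Erbb4 UMIs were found together in 4.76% to 5.84% of thinned cells, 2 to 12 cells per library.

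The genes most like each member over the 22 clusters were sought among 9305 genes that reached 20 CPM in some cluster, by Pearson's r of log2(CPM + 5), mean of the 4 libraries. The clusters share their libraries, so these values describe likeness and were not tested. For Nrg1 they included Gfra1 (r = 0.90) and Asic2 (0.86), a neurotrophic factor receptor and an ion channel. For Erbb4 they were Dmd (0.87), the gene of dystrophin in muscle, Fhl1 (0.85) and Ift43 (0.85). For Erbb3 they were Gm49890 (0.95), Map7 (0.95) and Myo5c (0.94). Egfr was most like Xkr4 (0.83), Thrb (0.81) and Fdft1 (0.80), Nrg3 like Foxd1 (0.85), Tbx18 (0.84) and Rnf220 (0.83), and Hbegf like Pcgf5 (0.89), Adipor1 (0.89) and Crip2 (0.88). Erbb2 did not reach 20 CPM in any cluster and was not compared.

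The genotypes were compared within each cluster on UMIs summed per library, with the replicate as a block (edgeR quasi-likelihood test, Benjamini-Hochberg over all genes of a cluster, called below 0.05). Of the 154 pairs of a member and a cluster, 126 had enough counts to be tested. In cKO, Erbb4 rose in 5 clusters, Nrg1 in 2 and Egfr in 1, each in both replicates. Nrg3 in cluster 12 was also called higher, but it was higher in Rep2 and lower in Rep1. No pair fell in this fit. These 9 calls of 126 pairs stand against 0.684% of the pairs called over all genes, 1131 higher and 764 lower of 277062. The members were chosen with earlier results of these data known, so this share is described and not tested. The median log2 fold change of the 126 pairs was 0.00, as was the median of the 22 cluster medians over all genes. The sign was the same in both replicates in 34 pairs higher and 34 lower, 54.0% of the pairs, against 51.7% over all genes.

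The adjusted p-values below rest on 1 residual degree of freedom per cluster and hence mainly on the spread pooled over genes. The SE after each ± was taken from the same test, as the log2 fold change divided by the square root of F. It is therefore not the spread between the libraries of a genotype. In clusters 12 and 16 the spread used was wholly the pooled one. Without the block, 0 pairs were called (5 with an unadjusted p below 0.05), by the same edgeR test. DESeq2 with the block called 4 of the 7 pairs to which it gave an adjusted p, and gave none to the other 2. With 1 library left out, 3 libraries have no residual degree of freedom beside the block, so those fits drop the block as well. None of the 9 was called in them, as without the block over all 4 libraries, so a loss of calls there cannot be put down to the library left out. Their log2 fold changes, given below as unblocked, also carry the difference in level between Rep1 and Rep2. The summed levels of the 20 marker lists moved with genotype in part. Of these lists, 9, 8, 9, 6, 7, 3 and 5 were higher in cKO of both replicates in clusters 3, 7, 10, 12, 14, 15 and 16, which hold the 9 pairs, against a median of 5.5 and a range of 0 to 9 over the 22 clusters. In the same order of clusters, 5, 6, 4, 7, 7, 7 and 3 lists were lower in cKO of both replicates. The part of these lists in the calls was not tested.

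**Figure D3:**
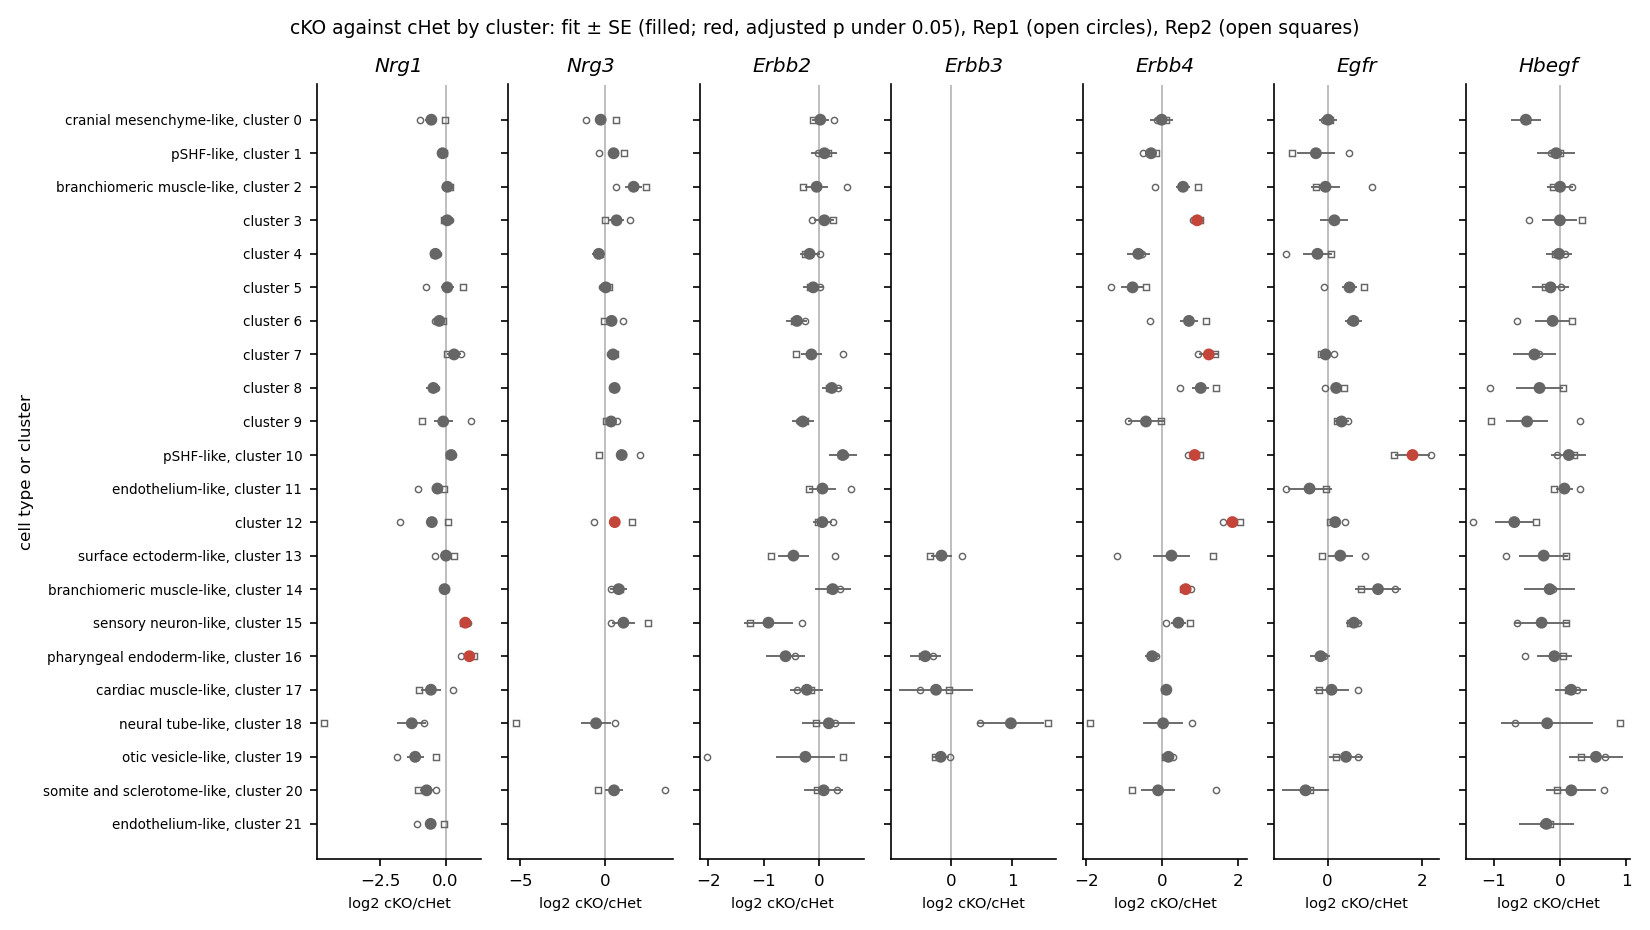
log2 fold change of cKO over cHet (x axis) for the 7 genes (panels) in each tested cluster (rows), as the fitted value with its SE (filled points, red where the adjusted p was below 0.05) and as the value within Rep1 (open circles) and Rep2 (open squares). The red points are 5 for Erbb4, 2 for Nrg1 and 1 each for Egfr and Nrg3, all right of 0, and the 2 replicates of Nrg3 in cluster 12 lie on opposite sides (-0.68 and 1.56).

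The response of Erbb4 to genotype differed between clusters (adjusted p = 0.00384, edgeR quasi-likelihood F test of the cluster by genotype terms), as did that of Nrg1 (adjusted p = 0.00264). Of all 16850 genes in that test, 1.63% were called. The terms did not pass for Egfr (adjusted p = 0.292), Erbb2 (0.951), Erbb3, Nrg3 or Hbegf (1 for each).

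Erbb4 rose most in cluster 12, from 41.8 to 130 CPM in Rep1 and from 22.5 to 93.4 CPM in Rep2. Both cKO libraries lay above both cHet libraries. The log2 fold change was 1.85 ± 0.10 (SE from the fit, n = 2 libraries per genotype, adjusted p = 2.23e-79 by edgeR), in a cluster where 1.46% of genes were called. The thinned share of cells with Erbb4 went from 7.66% to 16.4% and from 5.24% to 17.7%, and the mean count of the cells with a UMI from 2.35 to 4.60 and from 1.82 to 2.69. The summed level of the 8 cardiac muscle markers in cluster 12 was 137, 155, 567 and 316 CPM, higher in cKO in Rep1 and lower in Rep2. The ratio of this sum to Erbb4 was 3.28, 1.19, 25.2 and 3.39, against 19.3 to 22.4 in the cardiac muscle-like cluster 17. Sums of arterial (94.9, 128, 182 and 214 CPM) and epicardium markers (166, 180, 172 and 210 CPM) were higher in cKO of both replicates. They were among 6 such lists in this cluster, while 7 lists were lower in both. Without the cells that had a UMI of any cardiac marker the log2 fold change was 2.30 (adjusted p = 2.80e-19). Cluster 12 had 2 of 6 markers of multilineage progenitors (Tbx1 and Foxc2) and stayed unnamed. The change held under all 10 alternatives with the block. Its unblocked log2 fold change with 1 library left out ran from 1.29 to 2.49.

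The pSHF contributes to the venous pole of the heart. In the pSHF-like cluster 10 Erbb4 rose from 152 to 247 CPM in Rep1 and from 190 to 384 CPM in Rep2, again without overlap between genotypes. The log2 fold change was 0.86 ± 0.07 (adjusted p = 7.99e-24 by edgeR), where 0.907% of genes were called. The share of cells differed less, from 20.3% to 23.9% and from 23.5% to 30.1%, while the mean count of the cells with a UMI went from 4.02 to 6.84 and from 4.52 to 7.17. Cardiac muscle markers were also higher in cKO of both replicates in this cluster, with summed levels of 279 and 706 CPM in Rep1 and 453 and 693 CPM in Rep2. The ratio of their sum to Erbb4 was 1.80 to 2.85 in cluster 10. The sum of pSHF markers was 442, 544, 788 and 832 CPM, also higher in cKO of both replicates. Without the cells that had a UMI of any cardiac marker the log2 fold change was 0.67 and was no longer called (adjusted p = 0.342 by edgeR). That filter counted all UMIs of a cell, so it leaves fewer cells and removes deep cells more readily. The lost call therefore cannot be put down to cardiac content alone.

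Egfr in cluster 10 was called as well, on few molecules: 6, 22, 21 and 57 UMIs, or 0.871, 4.71, 1.72 and 4.96 CPM. The genotypes did not overlap, and the log2 fold change was 1.79 ± 0.37 (adjusted p = 0.000491 by edgeR). Thinned, only 1, 3, 6 and 14 cells had a UMI, 0.333%, 1.63%, 1.12% and 2.22% of the cells, close to the 0% to 2.63% of the endothelium-like cluster 21. Of these cells 0%, 100%, 16.7% and 64.3% also had a UMI of a cardiac muscle marker, against 26.0% to 35.5% of the cells without Egfr. The call was kept in 5 of 9 alternatives with the block. It was lost with DESeq2 (adjusted p = 1.00), in thinned cells (0.358), with at least 4000 genes per cell (0.0680) and with at least 1000 genes per cell and new clusters (0.212), the last 3 by edgeR.

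Erbb4 was also called in cluster 3, where the log2 fold change was 0.93 ± 0.08 (adjusted p = 3.17e-05 by edgeR), with 0.83 within Rep1 and 0.99 within Rep2, and 0.182% of genes were called. The genotypes overlapped there, since cKO Rep1 (44.9 CPM) was below cHet Rep2 (48.8 CPM). Cluster 3 had 3 of 8 cranial mesenchyme markers, and cardiac markers were carried by 50% to 80% of its Erbb4 cells, against 24.0% to 45.5% of its other cells. Their summed level was 123 and 134 CPM in Rep1 and 416 and 344 CPM in Rep2, and without cells that carried them the log2 fold change was 1.26 (adjusted p = 0.0111). The ratio of their sum to Erbb4 was 2.97 to 8.52. The sums of epicardium markers (42.2, 58.0, 66.2 and 97.7 CPM) and of pSHF markers (83.0, 124, 115 and 126 CPM) were higher in cKO of both replicates. They were among 9 such lists in this cluster, while 5 lists were lower in both. The call was kept in 8 of 10 alternatives with the block. It was lost where the cells were clustered again with doublets kept (0.52, adjusted p = 0.736) or with at least 1000 genes per cell (0.55, adjusted p = 0.319), and the unblocked log2 fold change without cKO Rep2 was 0.50.

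In cluster 7 Erbb4 was low, at 4.102 and 8.12 CPM in Rep1 and 2.76 and 7.49 CPM in Rep2, without overlap between genotypes. The log2 fold change was 1.23 ± 0.25 (adjusted p = 0.00434 by edgeR), where 1.36% of genes were called. The thinned share of cells was 2.66%, 1.94%, 1.23% and 2.35%, above the endothelium-like cluster 11 in each library but not higher in cKO of Rep1. The thinned Erbb4 UMIs came from 8, 10, 6 and 16 cells, and in thinned cells the call was lost (log2 fold change 0.92, adjusted p = 0.550 by edgeR). DESeq2 gave this pair no adjusted p. The ratio of the summed cardiac markers to Erbb4 was 1.55 to 8.52 here. Sums of sensory neuron (19.3, 24.1, 31.3 and 51.2 CPM) and arterial markers (63.6, 82.4, 130 and 150 CPM) were higher in cKO of both replicates. They were among 8 such lists in this cluster, while 6 lists were lower in both. The unblocked log2 fold change without cHet Rep2 was 0.76.

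In the branchiomeric muscle-like cluster 14 Erbb4 rose from 30.8 to 51.9 CPM and from 71.9 to 104 CPM, and the share of cells went from 10.2% to 14.5% and from 18.0% to 25.4%. The log2 fold change was 0.62 ± 0.11 (adjusted p = 0.000441 by edgeR), where 2.71% of genes were called. The replicates differed more than the genotypes, so the groups overlapped. DESeq2 did not call this pair (adjusted p = 0.546), nor was it called in thinned cells (log2 fold change 0.58, adjusted p = 0.0795 by edgeR). Marker sums that were higher in cKO of both replicates included those of branchiomeric muscle (296, 378, 574 and 711 CPM) and of the anterior second heart field (426, 519, 635 and 844 CPM). In this cluster 7 lists were higher in both replicates and 7 were lower. Over the alternatives with all 4 libraries its log2 fold change ran from 0.54 to 0.66. The unblocked values were 0.28 without cHet Rep1, 0.27 without cKO Rep2 and 1.12 without cHet Rep2.

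In heart muscle itself, where Erbb4 was highest, no change was called. The cardiac muscle-like cluster 17 had 1159 and 1219 CPM in Rep1 and 1763 and 1803 CPM in Rep2, and the log2 fold change was 0.11 ± 0.10 (adjusted p = 1.00 by edgeR), where 0.117% of genes were called. Otic vesicle-like cells, whose mean level came after those of clusters 17 and 10, had a log2 fold change of 0.17 ± 0.12 (adjusted p = 0.995 by edgeR). The neural tube-like cluster 18 was not called either, and its replicates went in opposite directions, 0.78 in Rep1 and -1.89 in Rep2, the latter with 12 UMIs in cKO. In cluster 8 the log2 fold change of Erbb4 was 1.02 ± 0.23, with 0.49 in Rep1 and 1.43 in Rep2, and missed the threshold (adjusted p = 0.137). It was called with no filter on low counts (adjusted p = 1.51e-05 by edgeR), in thinned cells (0.0258) and without cells that had a cardiac UMI (0.00256). The branchiomeric muscle-like cluster 2 had a log2 fold change of 0.55 ± 0.19 (adjusted p = 0.439), with -0.19 in Rep1 and 0.96 in Rep2. Erbb4 was called higher there under 4 alternatives, with log2 fold changes of 0.53 to 1.06 and adjusted p-values of 8.49e-05 to 0.0365 by edgeR.

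**Figure D4:**
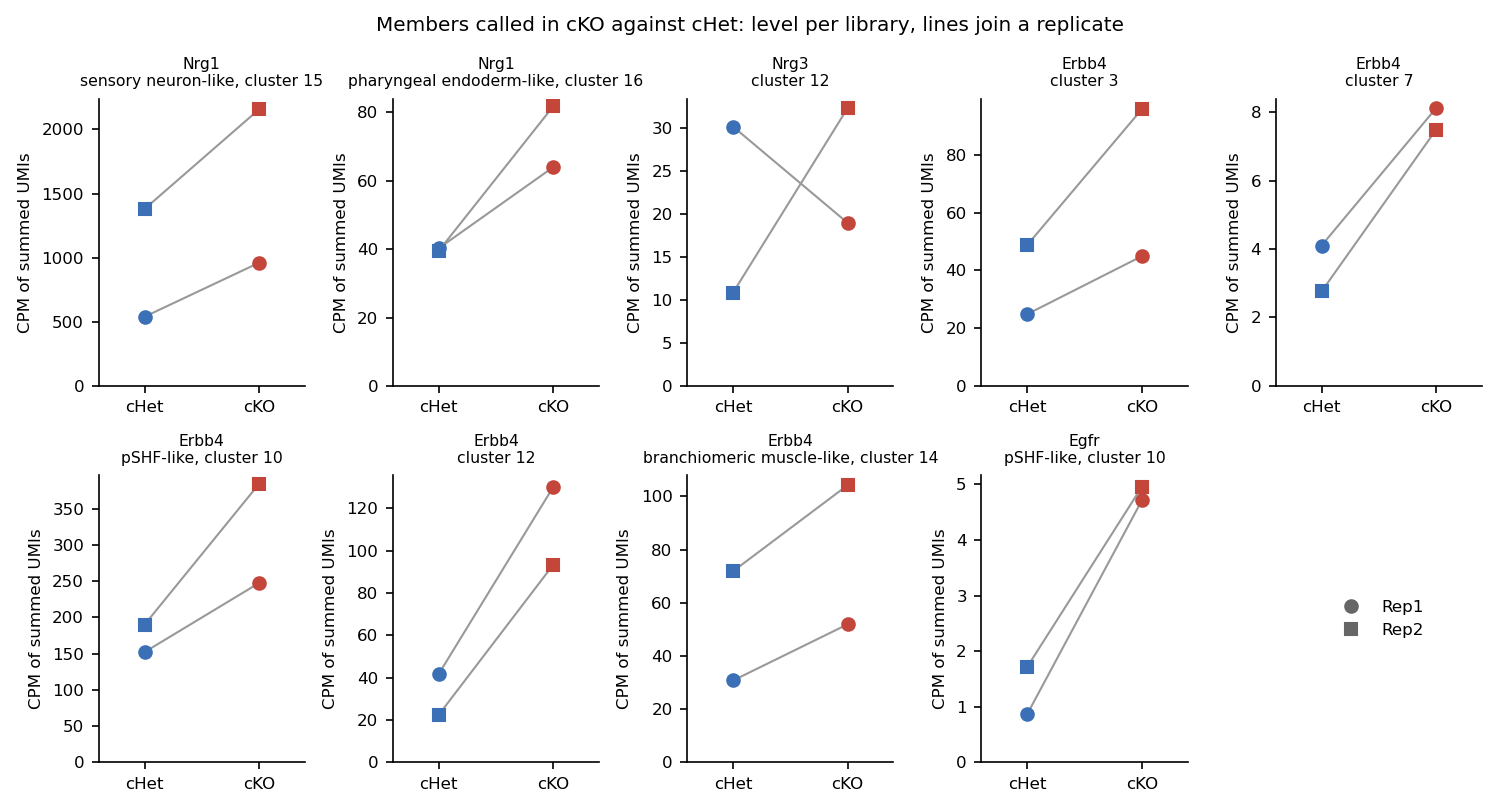
Level per library (y axis, CPM of summed UMIs, starting at 0) in cHet and cKO for the 9 pairs of a gene and a cluster called between genotypes, with lines joining the libraries of a replicate. In 8 of the 9 panels both lines go up. In Nrg3 in cluster 12, Rep1 goes from 30.2 down to 19.0 CPM and Rep2 from 10.9 up to 32.4 CPM.

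Nrg1 rose in the cells in which it was highest. Sensory neuron-like cells went from 539 to 960 CPM in Rep1 and from 1379 to 2157 CPM in Rep2. The genotypes overlapped, since the replicates differed more than the genotypes, and both replicates moved alike (0.85 and 0.65 on the log2 scale). The log2 fold change was 0.75 ± 0.08 (adjusted p = 0.0165 by edgeR), in a cluster where 0.0327% of genes, 4 of 12224, were called. The share of cells with Nrg1 was not higher in cKO, at 60.1% against 56.5% and 74.7% against 71.9%. The mean count of the cells with a UMI was, at 4.28 against 7.95 and 8.85 against 14.6. The summed level of the 11 sensory neuron markers was 2542 and 3267 CPM in Rep1 and 7675 and 7501 CPM in Rep2, higher in cKO in Rep1 only, and its part in the result was not tested. With doublets kept, the call was lost (log2 fold change 0.56, adjusted p = 0.0621). Over the alternatives with all 4 libraries the log2 fold change ran from 0.56 to 0.80. The unblocked values were 0.29 without cHet Rep1, 0.22 without cKO Rep2 and 1.35 without cHet Rep2.

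In pharyngeal endoderm-like cells, the lining of the pharyngeal pouches, Nrg1 rose from 40.3 to 64.0 CPM and from 39.5 to 81.8 CPM, without overlap. The log2 fold change was 0.90 ± 0.16 (adjusted p = 2.87e-05 by edgeR), where 0.495% of genes were called. As in neurons, the share of cells did not move in step, at 14.6%, 16.7%, 17.7% and 15.9%. Unlike in neurons, the thinned mean count of the cells with a UMI rose in Rep2 only. It was 1.85 against 1.73 in Rep1 and 1.18 against 2.18 in Rep2. The 5% of cells with the most held 38.5% to 63.3% of the thinned Nrg1 UMIs, which in part restates how few cells had a UMI. Sensory neuron markers summed to 19.9, 12.4, 15.7 and 36.3 CPM in this cluster, and their part was not tested. DESeq2 did not call this pair (adjusted p = 1.00), nor was it called in thinned cells (log2 fold change 0.51, adjusted p = 1.00 by edgeR) or without cells that had a cardiac UMI (0.71, adjusted p = 1.00).

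Nrg1 was lower in cKO of both replicates in 11 of the 22 clusters, none of which passed the test, and higher in both in 4. With no filter on low counts, clusters 18 and 19 were called lower (adjusted p = 0.00292 and 0.00268 by edgeR). In the neural tube-like cluster 18 it was at 60.4 and 33.9 CPM in Rep1, and in Rep2 at 18.5 CPM in cHet with no UMI in cKO, where 3 UMIs would be 2.83 CPM (adjusted p = 1.00 by edgeR). The neural tube markers of this cluster summed to 114, 164, 31.8 and 2.83 CPM, so its cKO Rep2 cells differ from the others. The part of this in the values was not tested. Otic vesicle-like cells had 37.1 and 10.1 CPM in Rep1 and 10.0 and 7.78 CPM in Rep2 (log2 fold change -1.16 ± 0.33, adjusted p = 0.371 by edgeR). Their cHet Rep1 library also stood out in markers of other types. Branchiomeric muscle markers summed to 33.0, 3.78, 8.46 and 2.14 CPM, and somite and sclerotome markers to 27.2, 2.10, 1.57 and 2.53 CPM. Of the 20 lists, 10 were lower in cKO of both replicates in this cluster and 1 higher, and their part was not tested. In the endothelium-like cluster 21, which held the progenitor group, the values were 113, 52.4, 49.5 and 47.9 CPM (-0.57 ± 0.19, adjusted p = 0.191). In the pSHF-like cluster 1 the log2 fold change was -0.12 ± 0.06 (adjusted p = 0.874) and in the muscle-like cluster 14 it was -0.04 ± 0.08 (adjusted p = 0.969).

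Nrg3 in cluster 12 passed the threshold (log2 fold change 0.57 ± 0.14, adjusted p = 0.00828 by edgeR), but its replicates went in opposite directions, -0.68 in Rep1 and 1.56 in Rep2. The call was kept in 2 of 9 alternatives with the block, and scaling by RLE in place of TMM moved its adjusted p to 0.561. DESeq2 gave it no adjusted p. The unblocked log2 fold change was -0.41 without cHet Rep2, -0.01 without cKO Rep2 and 1.37 without cHet Rep1. In cluster 7 Nrg3 was higher in cKO of both replicates, with a log2 fold change of 0.46 ± 0.12, and just missed the threshold (adjusted p = 0.0555). In cluster 8 it was 0.55 ± 0.15 (adjusted p = 0.251), in a cluster where 0.189% of genes were called. Over its 16 tested clusters Nrg3 was higher in both replicates in 7 and lower in both in 1.

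None of the other members was called in the cluster where its level was highest. Egfr in cluster 8 had a log2 fold change of 0.18 (adjusted p = 0.674) and was at 63.4 and 61.9 CPM in Rep1 and 87.7 and 109 CPM in Rep2. Erbb3 in otic vesicle-like cells had -0.17 (adjusted p = 0.995), where 0.135% of genes were called. Hbegf in the endothelium-like cluster 11 had 0.06 (adjusted p = 0.998), where 0.0561% of genes were called, and Erbb2 in cluster 12 had 0.05 (adjusted p = 0.987). Erbb2 was tested in 21 clusters, Hbegf in 22 and Erbb3 in 5, with 1, 2 and 0 unadjusted p-values below 0.05 by edgeR and no call by edgeR or by DESeq2.

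The genes that act with these ligands and receptors are counted below against all genes, of whose pairs 0.684% were called and 6.75% had an unadjusted p below 0.05. The lists were chosen with earlier results of these data known, so their shares are described and not tested. Of 8 other EGF-family ligands, 4 (Nrg2, Nrg4, Egf and Tgfa) were tested somewhere, and 0 of 50 pairs of a gene and a cluster were called by edgeR, with 4 unadjusted p-values below 0.05. Of the 9 proteases and protease partners that release these ligands, among them Adam10, Adam17 and Bace1, 0 of 180 pairs were called, with 8 below 0.05. Of 14 adaptors and kinases, such as Grb2 and Shc1, 0 of 308 pairs were called, with 19 below 0.05. DESeq2 called 0 pairs in each of these 3 lists. The median log2 fold changes over their pairs were -0.13, -0.01 and -0.01. For all genes, the median of the medians of the 22 clusters was 0.00.

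Of 13 negative regulators of receptor signalling, 1 of 272 pairs rose and 1 fell, 0.735% of its pairs against 0.684% over all genes, and 27 pairs (9.93%, against 6.75%) had an unadjusted p below 0.05. Spry1, an inhibitor of signalling by receptor tyrosine kinases, rose in cluster 7 (log2 fold change 0.74 ± 0.17, adjusted p = 0.0144 by edgeR). Its relative Spry4 fell by 1.09 on the log2 scale in the branchiomeric muscle-like cluster 14 (adjusted p = 0.0184). DESeq2 called neither.

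Of 8 transcripts that follow ERK activity, the main pathway below these receptors, 4 of 154 pairs rose and 3 fell. These are 4.55% of its pairs, against 0.684% over all genes, and 31.2% had an unadjusted p below 0.05, against 6.75%. The pairs are 8 genes counted again in each cluster of the same 4 libraries, and the list was chosen with earlier results known. The excess is therefore no test of signalling by these receptors. All 4 that rose were Myc, a growth regulator, with log2 fold changes of 0.42 in the cranial mesenchyme-like cluster 0, 0.60 in cluster 9, 0.64 in cluster 12 and 1.14 in cluster 14 (adjusted p = 2.15e-05, 0.00205, 0.00326 and 6.89e-07 by edgeR). Those that fell were the transcription factor genes Egr1 in the pSHF-like cluster 1 and Etv5 in cluster 14, by 1.75 and 0.66 on the log2 scale (adjusted p = 0.00275 and 0.0160), and the cyclin gene Ccnd1 in the pSHF-like cluster 10, by 0.36 (adjusted p = 0.000184). Dusp6, Dusp4, Etv4 and Fos were not called in any cluster. The list had a median log2 fold change of -0.04. DESeq2 called 1 of its pairs, which was higher in cKO.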

How the data were processed

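Cells were sorted from pools of embryos and measured by 10x Genomics 3′ single-cell RNA-seq. The deposited matrices hold raw UMI counts per gene and barcode, which the authors made with Cell Ranger (8.0.1 per the submitters' processing notes; the file headers name 7.0.1 for Rep1 and 8.0.1 for Rep2) on mm10, with 4 libraries in all. Alignment with different versions may shift counts between replicates, which the replicate block takes up. Cells with at least 3000 genes, at most 10% mitochondrial and at most 5% hemoglobin UMIs were kept, after calls of doublets by a Scrublet-type score at the rate expected for each kit. The study removed ambient RNA, that is, RNA from outside the cells, with SoupX. No such step was made here.

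Cells were clustered with scanpy 1.11.5 on 2000 variable genes without the 7 members (30 principal components, 20 neighbours, Leiden resolution 0.8), and a cluster was named where at least 3 and at least 40% of a type's markers were in at least 10% of its cells and at least 2-fold higher than in other cells (the 40% was set after the clusters were seen). UMIs were summed per cluster and library and tested with edgeR 4.0.16 (TMM, quasi-likelihood, replicate as a block, at least 20 cells per library, Benjamini-Hochberg over all genes of a cluster). DESeq2 1.42.0 was an alternative. p-values rest on 2 libraries per genotype, each a pool of embryos. The block follows the labels, which give 1 kit per replicate, and same-numbered libraries deviated together (correlations of 0.60 to 0.82 in the 22 clusters). The prior degrees of freedom were infinite in 5 clusters (0, 6, 9, 12 and 16), where no spread of a single gene enters the test, and at least 4.92 in the others. The test of cluster by genotype terms used all 88 sums in 1 fit, with 21 terms. Intervals and count floors cover counting error only. On simulated counts for cluster 15, edgeR recovered 52.2%, 86.6% and 100% of genes changed 1.5-fold, 2-fold and 4-fold (12224 genes). For cluster 12 these were 73.1%, 91.0% and 100% (12873 genes). The simulation gave genes the spread of the fitted trend, with none of their own, and changed only genes with a mean of at least 20 UMIs. It does not show recovery for sparser genes or for genes with a spread of their own.

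All 7 members were named. Of the pathway lists, called genes were named (up to 10 by adjusted p). The 3 genes most like a member were named where it reached 20 CPM, apart from 1 that is not reported here. Members and lists were chosen with earlier results of these data known. The robust fit and the exclusion of cells with cardiac UMIs were added after seeing the data.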

Additional observations from a re-analysis of the deposited data

Results flagged for a closer look

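The effect of genotype differed between the 22 clusters for 2 of the 7 genes, by a test of the cluster by genotype terms in 1 edgeR quasi-likelihood fit. For Erbb4 the adjusted p was 0.00384 (F = 4.49), and its log2 fold change ran from -0.78 in cluster 5 to 1.85 in cluster 12. For Nrg1 the adjusted p was 0.00264 by the same test (F = 4.74). Its log2 fold change ran from -1.29 in the neural tube-like cluster 18 to 0.75 in the sensory neuron-like cluster 15 and 0.90 in the pharyngeal endoderm-like cluster 16. In cluster 18, cKO Rep2 had no Nrg1 UMI, and neural tube markers summed to 2.83 CPM there, against 31.8 CPM in cHet Rep2. The part of this in the result was not tested. The sums of 1 library are related across clusters, and the fit held library as a block for that. With 2 libraries per genotype, no group was large enough to look for a library far from the others.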

How the results depend on the processing

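Without the replicate block 0 member pairs and 0 of all gene pairs were called by edgeR, with an unadjusted p below 0.05 for 5 and 1424. With DESeq2 and the block 4 and 117 were called, and with no filter on low counts 16 and 3494, of which 2 member pairs were lower (Nrg1 in clusters 18 and 19). Of all gene pairs, 596 were called in cells thinned to 5000 UMIs. Of the 9 member pairs, 8 were called with RLE scaling, 9 with the robust fit, 9 with no filter, 4 in thinned cells, 7 with at least 4000 genes per cell, 6 with doublets kept and 8 at a Leiden resolution of 1.5. With at least 1000 genes per cell the cells were also clustered again, with 70.1% left in the same cluster, and 956 gene pairs were called in the 16 clusters tested. There 6 member pairs were higher and 2 lower (Nrg1 in clusters 4 and 8), with 3 of the 6 main pairs tested among them. Without cells that had a UMI of a cardiac muscle marker 9 member pairs were higher and 1 lower (Erbb4 in cluster 5, adjusted p = 0.0498 by edgeR), with 5 of the 8 main pairs tested among them. That filter used all UMIs of a cell, left 21 clusters to test and also cut cell number and depth. Calls lost there cannot be put down to cardiac content alone. Outside the 9, 11 pairs were called higher and 6 lower by at least 1 alternative. The fits with 1 library left out also dropped the replicate block, and their shifts cannot be put down to the library alone. They gave 0 to 2 member pairs and 1 to 48 gene pairs. The 2 pairs called without cKO Rep1 (Nrg1 and Nrg3 in cluster 18) were lower in cKO and were not among the 9, and 0 of the 9 were called in any of these fits. The direction of 8 of the 9 pairs held under every alternative run. In the fits with neither the block nor 1 of the libraries, Nrg1 in cluster 15 ran from 0.22 to 1.35, Erbb4 in cluster 14 from 0.27 to 1.12, in cluster 3 from 0.50 to 1.26 and in cluster 7 from 0.76 to 1.70 on the log2 scale. With all 4 libraries these ran from 0.56 to 0.80, 0.54 to 0.66, 0.52 to 1.26 and 0.92 to 1.25. Nrg3 in cluster 12 turned in direction, at -0.41 to 1.37 with 1 library left out and 0.27 to 0.67 with all 4. Among the members in the cluster where each was highest, none of which was called apart from Nrg1 and Nrg3, Erbb2 turned to -0.17 in thinned cells and to -0.040 at a Leiden resolution of 1.5, and with 1 library left out ran from -0.22 to 0.49. Likewise without the block and 1 library, Erbb4 in cluster 17 ran from -0.056 to 0.30, Egfr in cluster 8 from -0.095 to 0.39 and Hbegf in cluster 11 from -0.088 to 0.30. With at least 1000 genes per cell and new clusters Egfr in cluster 8 had a log2 fold change of 0.47 and was called (adjusted p = 0.0315 by edgeR). The cause of these shifts was not tested. Depth set the shares of cells: from all UMIs to 5000 UMIs, the share went from 69.4% to 25.3% for Erbb3 in cluster 19 and from 24.2% to 8.21% for Erbb2 in cluster 12.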

Other observations

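Of the other ligands of the family, Areg, Ereg, Btc and Epgn did not have enough counts for a test in any cluster. Tgfa, a ligand of EGFR, was highest in pharyngeal endoderm-like cells, at 25.3, 41.6, 37.3 and 44.9 CPM after TMM scaling, with the libraries in the order used above, and Nrg2 in cardiac muscle-like cells, at 12.8, 5.29, 16.7 and 14.5 CPM. Of the proteases that release ligands, Adam12 (354 to 458 CPM) and Adam10 (209 to 304 CPM) were highest in the endothelium-like cluster 21. The feedback inhibitor Errfi1, which binds EGFR-family kinases, was highest in pharyngeal endoderm-like cells, at 45.7 to 96.5 CPM, and Lrig1, which lowers ErbB receptors at the membrane, in the somite and sclerotome-like cluster 20, at 208 to 274 CPM. None of these genes was called between genotypes in any cluster by edgeR.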
